A study of Mus musculus with 6 samples.

Results

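The Otx and Zic families were followed in mouse ganglionic eminences collected at E13.5, a mid-gestation stage of the embryo. The members were taken by name as the rows of the deposited gene table for Otx1, Otx2, Zic1, Zic2, Zic4 and Zic5. They made 6 genes of 55416 in the table, and all 6 had enough reads to be tested. The ganglionic eminences are the ventral swellings of the embryonic telencephalon that give rise to striatal neurons and cortical interneurons. The study compared 3 libraries of Dlx1/Dlx2 double knockout embryos with 3 libraries of wildtype littermates, by sequencing of total RNA depleted of ribosomal RNA. The labels do not describe the Dlx1 and Dlx2 alleles, the strain, or whether a library held tissue of 1 embryo or of several. The p-values therefore measure the spread between these libraries, which may be partly technical.

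OTX proteins are homeodomain transcription factors of the anterior brain. Otx2 is needed for the forebrain and midbrain to form and acts later in the choroid plexus and diencephalon, while Otx1 is expressed in the dorsal telencephalon and cortex. ZIC proteins are zinc finger transcription factors related to the GLI factors of hedgehog signalling. They are known from the dorsal midline, the septum, the meninges and Cajal-Retzius cells. Zic1 and Zic4 lie head to head at one locus, and Zic2 and Zic5 at another.

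Promoter sequences from RefSeq (build GRCm38.p6) were found for 4 of the 6 members, Otx2, Zic1, Zic4 and Zic5. Those of the called members and of Zic4, the neighbour of Zic1, are shown because these 3 genes had double knockout libraries above every wild-type library. Each sequence holds the 250 bases before an annotated start, read 5′ to 3′ along the gene. Capitals mark TAATTA, a core motif of homeodomain proteins such as DLX, which reads the same on both strands. For Otx2, 2 of its 4 annotated starts are shown, those whose windows held TAATTA. These windows are chr14:48667645-48667894 and chr14:48665110-48665359 on the minus strand. The Zic1 window is chr9:91365769-91366018 on the minus strand and the Zic4 window is chr9:91368722-91368971 on the plus strand.
Otx2, the first start: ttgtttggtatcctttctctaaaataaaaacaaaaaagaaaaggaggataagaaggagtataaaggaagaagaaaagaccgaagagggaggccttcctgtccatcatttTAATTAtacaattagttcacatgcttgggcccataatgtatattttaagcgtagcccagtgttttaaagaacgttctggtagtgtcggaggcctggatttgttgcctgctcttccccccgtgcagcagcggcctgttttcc
Otx2, the third start: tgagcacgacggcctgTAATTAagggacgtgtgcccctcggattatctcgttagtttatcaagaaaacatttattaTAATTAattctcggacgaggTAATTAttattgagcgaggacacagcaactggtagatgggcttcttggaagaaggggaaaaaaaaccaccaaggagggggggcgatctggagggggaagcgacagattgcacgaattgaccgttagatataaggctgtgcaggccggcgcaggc
Zic1: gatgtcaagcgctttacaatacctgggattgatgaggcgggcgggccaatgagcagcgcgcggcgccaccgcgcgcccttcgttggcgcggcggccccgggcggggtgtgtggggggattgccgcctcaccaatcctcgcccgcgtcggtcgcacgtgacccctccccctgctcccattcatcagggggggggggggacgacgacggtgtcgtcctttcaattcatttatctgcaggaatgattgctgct
Zic4: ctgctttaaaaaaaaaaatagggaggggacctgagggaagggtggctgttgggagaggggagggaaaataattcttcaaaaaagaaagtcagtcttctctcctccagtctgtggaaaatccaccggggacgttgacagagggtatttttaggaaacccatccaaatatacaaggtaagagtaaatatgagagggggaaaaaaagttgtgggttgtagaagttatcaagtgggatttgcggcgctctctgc

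The windows differed in the motif. TAATTA occurred once before the first Otx2 start and 3 times before the third. It was not in the other windows of Otx2 or in those of Zic1, Zic4 and Zic5. Of all 32851 promoter windows of this length, 4.84% held the motif and 0.0487% held it at least 3 times. The OTX core TAATCC, read on either strand, occurred in the window of the third Otx2 start alone among the 7 windows, and in 6.25% of all windows. The RBPJ core TGGGAA, through which Notch signalling reaches DNA, was in none of the 7 windows and in 21.6% of all. The motifs were searched on both strands, and a match describes letters only. The Zic1 window was 66.0% G and C and the Zic4 window 44.4%, against a median of 52.4%.

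Total counts were between 56618090 and 70114173 per library. Dlx1 and Dlx2 went with the labels in all libraries. Dlx1 measured 434 to 445.7 CPM over the wild-type libraries and 74.9 to 94.0 CPM over the double knockout libraries, and Dlx2 281.8 to 313 CPM and 7.503 to 10.99 CPM. CPM is the usual depth-scaled read count, a gene's reads relative to the library total, here with totals scaled by the TMM method of edgeR. The ganglionic eminence markers were at 1902 to 2011 CPM in sum in the wild type and 1401 to 1709 CPM in the double knockout, and all 14 were measured. A pair of libraries stood apart. Wild-type replicate 1 had 1540 reads of Ttr, the transthyretin gene that defines choroid plexus epithelium, where no other library had more than 10. Double knockout replicate 3 differed from the other double knockout libraries by a chi-square statistic of 29.8 and 36.4 per gene, against 13.1 between replicates 1 and 2. Between wild-type libraries the statistic was 20.4 to 21.7, and wild-type replicate 1 did not stand apart by it. In bulk tissue, a change in the number of cells of a type and a change in the RNA per cell cannot be told apart.

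Across both families, the fitted change was above 0 for all 6 members, against 49.5% of the 23628 tested genes. The median log2 fold change of the 6 was 0.66, beside -0.00161 over all tested genes. Otx2 and Zic1 rose, with a call meaning that the quasi-likelihood test of edgeR gave a p under 0.05 after Benjamini-Hochberg adjustment. That is 2 of 6 members called, where 2.68% of all tested genes were called and 1.34% were called higher. No member was called lower. For 3 of 6 members, Otx2, Zic1 and Zic4, every double knockout library was above every wild-type library, which held for 9.3% of all tested genes. The reverse held for none of the 6 and for 10.2% of all tested genes. The members were chosen with earlier results of these data known, so these counts are a description.

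**Figure D1:**
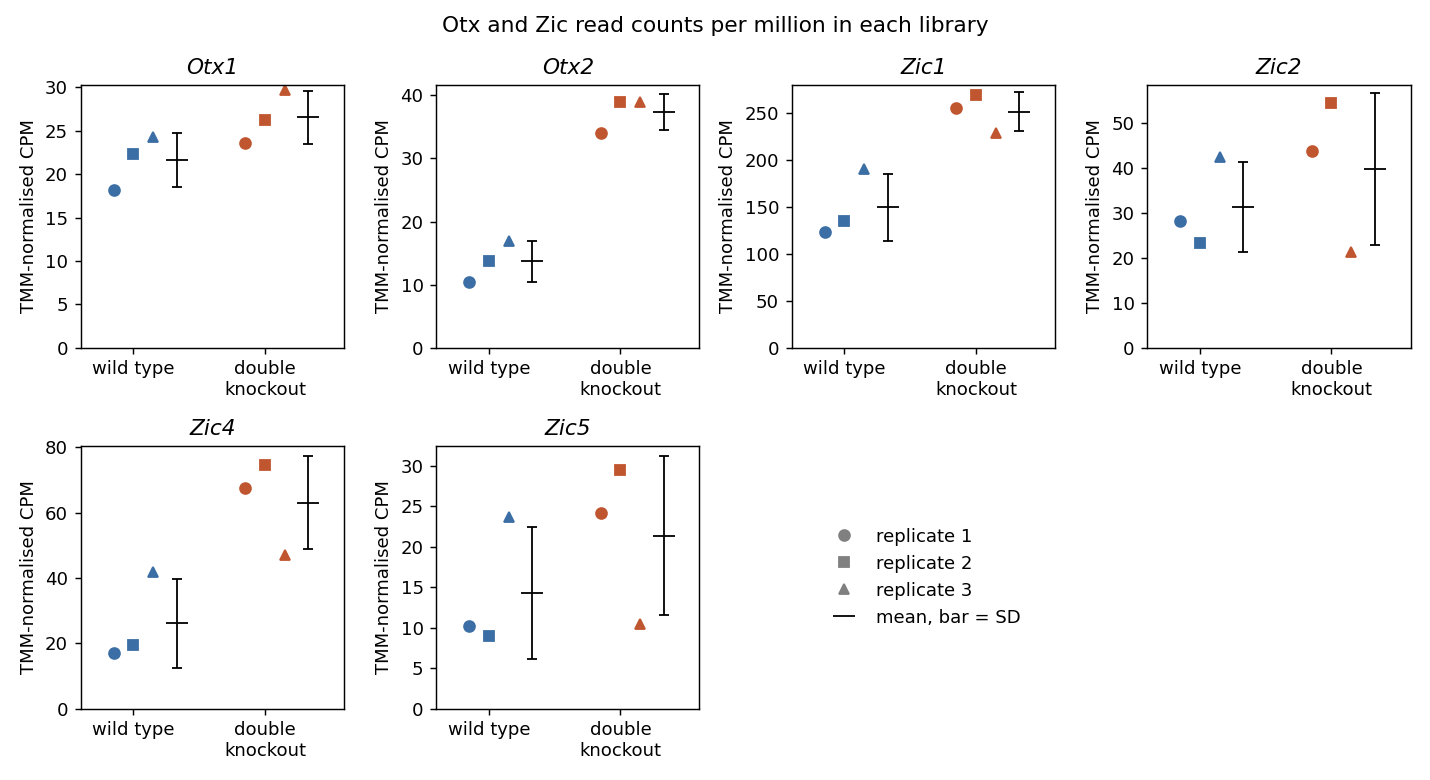
TMM-normalised CPM of each member in each library, with wild type in blue, double knockout in orange, 1 marker shape per replicate number, and the mean and SD as black bars. Otx2, Zic1 and Zic4 have all double knockout libraries above all wild-type libraries, and replicate 3 is the highest wild-type library in every panel.

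Otx2 (ENSMUSG00000021848, chromosome 14) had the largest fitted change of the 6 members. Wild-type replicates 1, 2 and 3 had 10.4, 13.8 and 16.9 CPM, and the double knockout replicates, in the same order, 34.0, 38.9 and 39.0 CPM. The lowest double knockout library was above the highest wild-type library, with no overlap. The change was 2.72-fold, or 1.44 on the log2 scale (SE 0.156, 95% interval 1.09 to 1.80; edgeR adjusted p 0.00188). The call held in all 14 alternative fits, with log2 fold changes from 1.28 to 1.62. These include the fits without the libraries that stood apart, at 1.28 without wild-type replicate 1 and 1.42 without double knockout replicate 3.

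The reads of Otx2 could be mixed with those of overlapping genes, since the library kit keeps strand but the strand setting of the counting is not given in the sources used here. In GENCODE M21, 3.65% of its exon bases overlap Otx2os1, a non-coding gene on the opposite strand, and 3.98% overlap Gm49154 on the same strand. Otx2os1 had 18, 5 and 20 reads in the wild-type libraries and 32, 46 and 36 in the double knockout libraries. It was far below Otx2, its groups did not overlap, and it was not called (log2 fold change 1.37, SE 0.467; edgeR adjusted p 0.228). Gm49154 had 4 to 19 reads in every library and was not tested.

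Otx1 (ENSMUSG00000005917, chromosome 11), the paralogue, was at 18.2, 22.3 and 24.3 CPM in the wild type and at 23.6, 26.3 and 29.7 CPM in the double knockout. The lowest double knockout library was below the highest wild-type library, so the groups overlapped. Its log2 fold change was 0.29 (SE 0.122, 95% interval 0.016 to 0.57; edgeR adjusted p 0.342, unadjusted 0.0405). An unadjusted p under 0.05 was found for 13.3% of all tested genes.

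The order of the Otx genes differed between the genotypes. The ratio of Otx2 reads to Otx1 reads was 0.572, 0.617 and 0.694 in the wild-type libraries and 1.44, 1.48 and 1.31 in the double knockout libraries. Otx1 thus had more reads in each wild-type library and Otx2 in each double knockout library. The log2 ratio was -0.68 ± 0.141 (SD, n = 3) in the wild type and 0.50 ± 0.0916 (SD, n = 3) in the double knockout. The difference of 1.17 had p = 0.1 in a two-sided exact permutation test, the smallest p that 3 libraries against 3 allow. Counted per kilobase of exon, the ranges of Otx1 and Otx2 overlapped in the wild type, at 3.36 to 4.49 and 2.47 to 3.999 CPM per kb. Within each wild-type library Otx1 was still above Otx2, at 3.36 against 2.47, 4.12 against 3.27 and 4.49 against 3.999 CPM per kb. In the double knockout the ranges did not overlap, at 4.36 to 5.48 for Otx1 and 8.06 to 9.23 CPM per kb for Otx2.

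**Figure D2:**
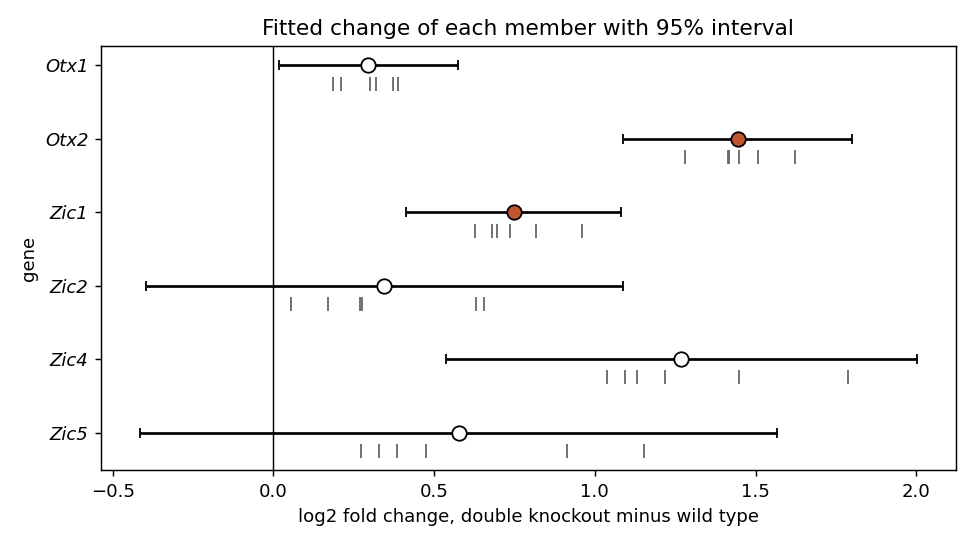
Fitted log2 fold change of each member, double knockout minus wild type, with its 95% interval; filled points passed the edgeR threshold, and ticks below each point are the fits without 1 library. Otx2 stays between 1.28 and 1.62 in these fits, while those of Zic2 run from 0.053 to 0.65 and those of Zic5 from 0.27 to 1.15.

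Zic1 (ENSMUSG00000032368, chromosome 9) was the most abundant member. Its wild-type libraries had 124, 135 and 190.1 CPM, and its double knockout libraries 256, 269.5 and 229 CPM. All double knockout libraries were above all wild-type libraries, with replicate 3 of each group nearest to the other group. The change was 1.68-fold, or 0.75 on the log2 scale (SE 0.147, 95% interval 0.41 to 1.08; edgeR adjusted p 0.0346). The call ended in the fits without wild-type replicate 1 or 2 or double knockout replicate 1 or 2, with edgeR adjusted p of 0.113, 0.14, 0.111 and 0.114. It held without wild-type replicate 3 or double knockout replicate 3 (edgeR adjusted p 0.00262 and 0.0272). The call also ended with Y-linked expression as a covariate (edgeR adjusted p 0.0548).

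Zic4 (ENSMUSG00000036972), on the opposite strand from Zic1 at the same locus, was at 17.1, 19.45 and 41.8 CPM in the wild type and at 67.4, 74.5 and 47.1 CPM in the double knockout. The groups did not overlap, but wild-type replicate 3 and double knockout replicate 3 lay close together. The fitted change was 2.41-fold, or 1.27 on the log2 scale (SE 0.321, 95% interval 0.54 to 2.001), and Zic4 was not called (edgeR adjusted p 0.0923). Without wild-type replicate 3 the log2 fold change was 1.79 and the edgeR adjusted p 0.00556. Without wild-type replicate 1 it was 1.04 and without double knockout replicate 3 it was 1.45, and neither fit called Zic4 (edgeR adjusted p 0.262 and 0.0524). With no filter on low counts it was called (edgeR adjusted p 0.0057). Across all 14 alternatives the adjusted p ran from 0.00556 to 0.277.

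Exons of Zic1 and Zic4 share 60 bases in GENCODE M21, 1.05% of Zic1 and 0.581% of Zic4, and Gm37477 overlaps a further 4.53% of Zic4 on the opposite strand. The ratio of Zic1 reads to Zic4 reads was 7.24, 6.94 and 4.55 in the wild type and 3.80, 3.62 and 4.86 in the double knockout. Wild-type replicate 3 fell below double knockout replicate 3, so the ratios overlapped. The difference in log2 ratio was -0.59, with p = 0.2 in a two-sided exact permutation test.

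Zic2 (ENSMUSG00000061524, chromosome 14), which is required for the midline of the forebrain, was at 28.2, 23.3 and 42.4 CPM in the wild type and at 43.7, 54.3 and 21.3 CPM in the double knockout. Double knockout replicate 3 was the lowest of all 6 libraries. The log2 fold change was 0.34 (SE 0.325, 95% interval -0.40 to 1.09; edgeR adjusted p 0.75). Without that library the log2 fold change was 0.65, and Zic2 was still not called (edgeR adjusted p 0.193). Zic5 (ENSMUSG00000041703), its neighbour, was at 10.3, 9.01 and 23.7 CPM in the wild type and at 24.2, 29.5 and 10.4 CPM in the double knockout. Wild-type replicate 3 was within reach of double knockout replicates 1 and 2, and double knockout replicate 3 was level with wild-type replicate 1. Its log2 fold change was 0.58 (SE 0.435, 95% interval -0.42 to 1.57; edgeR adjusted p 0.669), and 0.91 without double knockout replicate 3 (0.284). The intervals of Zic2 and Zic5 hold both no change and a change as large as that fitted for Zic1, so these data show neither a rise nor equal levels for these genes.

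The ratio of Zic2 reads to Zic5 reads overlapped between the groups. It was 2.75, 2.58 and 1.79 in the wild type and 1.80, 1.84 and 2.04 in the double knockout, a difference in log2 ratio of -0.30 with p = 0.4 in a two-sided exact permutation test. The ratio of Zic1 to Zic2 reads was 4.39, 5.80 and 4.49 in the wild type and 5.86, 4.96 and 10.8 in the double knockout. The last of these, in double knockout replicate 3, was the highest of the 6. The difference was 0.48 with p = 0.2 in the same exact permutation test, and 0.15 without that library. Of the 4 ratios computed, none could give an exact permutation p below 0.1 in this design, before any adjustment over the 4.

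**Figure D3:**
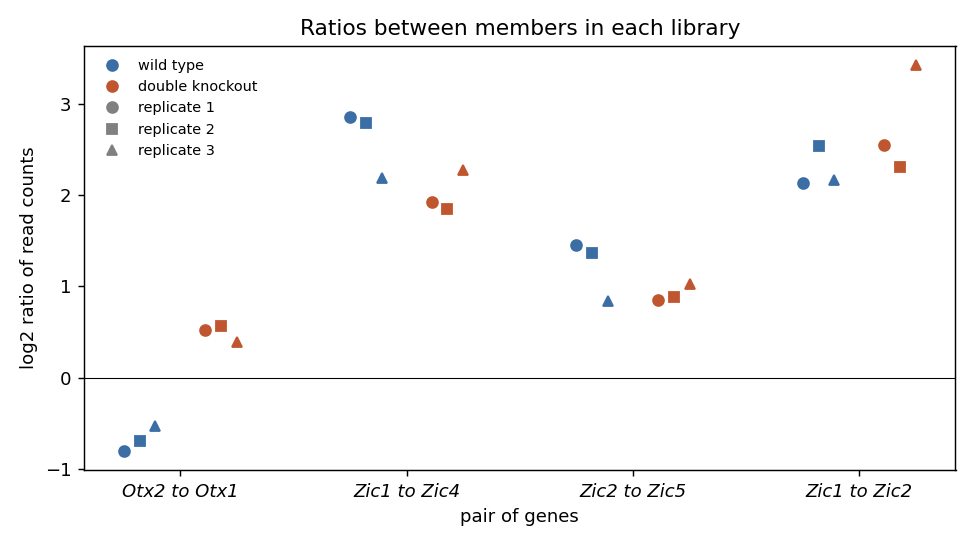
Log2 ratio of read counts between pairs of members in each library, with wild type in blue, double knockout in orange and 1 marker shape per replicate number. The ratio of Otx2 to Otx1 lies below 0 in the 3 wild-type libraries and above 0 in the 3 double knockout libraries, and the other pairs overlap.

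Among the 4 Zic genes described, Zic1 had the highest level per kilobase of exon. It made up 62.3% ± 4.13 (SD, n = 3) of their summed level in the wild type and 65.5% ± 7.60 (SD, n = 3) in the double knockout. The share of Zic4 was 4.69%, 5.30% and 7.10% in the wild-type libraries and 9.11%, 9.08% and 8.40% in the double knockout libraries, without overlap. The shares of Zic1, Zic2 and Zic5 overlapped between the groups. A share falls when another member rises, so the shares are not independent of each other.

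Ordered by wild-type level per kilobase, the members ran Zic1, Zic2, Otx1, Otx2, Zic5 and Zic4, with means of 26.3, 10.9, 3.99, 3.25, 2.93 and 2.53 CPM per kb. The ranges over libraries did not overlap between Zic1 and Zic2 or between Zic2 and Otx1, and overlapped between all other neighbours in this order. In the double knockout, Otx2 stood at 8.84 ± 0.672 CPM per kb (SD, n = 3), below only Zic1 at 44.2 ± 3.65 and Zic2 at 13.8 ± 5.86 CPM per kb (SD, n = 3). Its range overlapped that of Zic2 there. Exon lengths came from all transcripts of a gene in GENCODE M21, and that of Zic4, 10335 bases, is the longest of the 6.

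The members varied widely between replicates of a genotype. The pooled SD of log2 CPM within groups was 0.753 for Zic5, 0.581 for Zic2, 0.542 for Zic4, 0.25 for Otx2, 0.246 for Zic1 and 0.187 for Otx1. The median over the 10439 tested genes with a mean of 10 to 1000 CPM was 0.0824. The spread of Zic5 was larger than that of 99.8% of these genes, and that of Otx1, the least variable member, larger than that of 90.7%.

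The same libraries were high or low for most members. Wild-type replicate 3 was the highest wild-type library for all 6 members. Double knockout replicate 3, which stood apart from the other double knockout libraries, was the lowest of them for all 4 Zic genes. For both Otx genes it was the highest. The share of all tested genes with these orders was not counted, so these counts are a description. For Zic2 and Zic5 it was below the wild-type mean, by 0.51 and 0.32 on the log2 scale, where Otx2 in the same library was 1.54 above its wild-type mean.

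**Figure D4:**
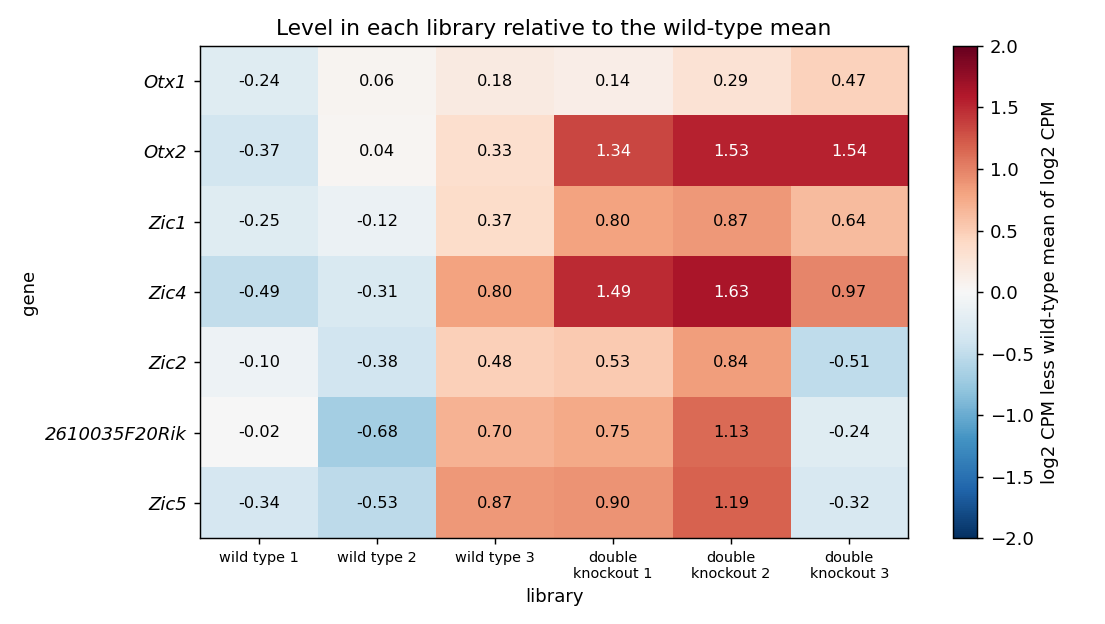
Log2 CPM of each member and of 2610035F20Rik in each library, less the mean of log2 CPM over the wild-type libraries, with red above and blue below that mean. The Otx2, Zic1 and Zic4 rows are red in all double knockout libraries, whereas Zic2, Zic5 and 2610035F20Rik are red in replicates 1 and 2 and blue in replicate 3.

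Some genes beside Zic2, Zic5 and Zic4 were among those nearest to them in pattern. Likeness was measured as the root mean square difference over the 6 libraries between a gene's log2 CPM, less its wild-type mean, and the same for the member, among 16463 tested genes whose mean reached 1 CPM. The gene nearest to Zic5 was 2610035F20Rik, at 0.185, and Zic2 itself was at 0.277. For Zic2, 2610035F20Rik was at 0.191, behind Gm47472 at 0.172 and Pcdha8 at 0.176. The non-coding gene 2610035F20Rik lies between Zic5 and Zic2 in GENCODE M21 and shares no exon bases with them. It was at 4.045, 2.55 and 6.625 CPM in the wild type and at 6.89, 8.95 and 3.46 CPM in the double knockout, with replicate 3 again high in the wild type and low in the double knockout. Its log2 fold change was 0.54 (SE 0.393), and it was not called (edgeR adjusted p 0.653). Gm29478, a non-coding gene that follows Zic4, was the second nearest to Zic4, at 0.281, behind Cnpy1 at 0.264. Gm29478 had 14, 3 and 56 reads in the wild type and 136, 141 and 47 in the double knockout. These neighbours were singled out after their values had been seen.

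For the called members, the nearest genes were fixed by rule. Nearest to Otx2 were Tfap2a, a transcription factor of the neural crest, at 0.136, Robo3, an axon guidance receptor, at 0.147, and Dlk1, a Notch ligand-like gene, at 0.184. Robo3 was at 10.9 to 15.7 CPM in the wild type and 31.4 to 37.1 CPM in the double knockout. Tfap2a was at 0.478 to 0.733 CPM and 2.27 to 2.35 CPM, and 3 genes overlap it on the opposite strand. Nearest to Zic1 were D030055H07Rik at 0.0996, Glyctk, a glycerate kinase gene, at 0.109 and Lhx1, a LIM homeodomain factor, at 0.114. D030055H07Rik and Glyctk overlap on opposite strands, so their reads may not be separate. Lhx1 was at 5.77, 6.27 and 7.30 CPM in the wild type and at 10.6, 11.7 and 9.74 CPM in the double knockout, and shared with Zic1 its lowest double knockout level in replicate 3.

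For the gene lists that follow, the share over all tested genes was 1.34% called higher and 1.34% called lower. Of the GLI and GLIS zinc finger genes, relatives of the Zic family, all 6 were tested, 1 rose and none fell. Their median log2 fold change was 0.32, and 2 were called with the replicate block. Gli3, which restrains hedgehog targets, rose from 162 ± 13.1 to 201.2 ± 7.999 CPM (SD, n = 3; log2 fold change 0.31, SE 0.0658; edgeR adjusted p 0.0463). The call ended in each of the 6 fits without 1 library and with the Y-linked covariate (edgeR adjusted p 0.0547 to 0.169), and Gm6556 overlaps Gli3 on the opposite strand. Of the 6 homeobox relatives of Otx, Dmbx1 alone had enough reads to be tested. It had 3, 0 and 2 in the wild type against 10, 11 and 12 in the double knockout (edgeR adjusted p 0.109). Dmbx1 passed the filter, with its minimum count of 10, only through the double knockout libraries, so this contrast is a description. Crx had no read in any library.

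Among 19 partners and neighbours of Otx factors in anterior patterning, 13 were tested, 1 rose and 1 fell, with a median log2 fold change of 0.18. Lhx2, a LIM homeodomain factor of the forebrain, rose from 123.1 ± 16.2 to 189.1 ± 9.82 CPM (SD, n = 3; edgeR adjusted p 0.00931). Meis2, a homeodomain factor of striatal progenitors, fell from 565 ± 29.2 to 414 ± 23.8 CPM (SD, n = 3; edgeR adjusted p 0.00895), a call that ended without double knockout replicate 2 (0.0502).

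Markers of tissues where Otx2 or Zic genes are known to be expressed were measured beside them. Of 12 choroid plexus genes, 9 were tested and none was called, with a median log2 fold change of 0.16. Ttr, Folr1 and Kcne2 were the ones not tested. The tested ones include Otx2os1, whose exons overlap those of Otx2. Otx2os1, at 5 to 46 reads per library, alone among them had groups that did not overlap. Of all tested genes, 9.3% had every double knockout library above every wild-type library, and 10.2% had the reverse. Ttr had 1540 reads in wild-type replicate 1 and 0 to 10 in the other libraries, and Folr1 had 32 reads there and 0 to 2 elsewhere. Wild-type replicate 1, the library with choroid plexus reads, had the lowest Otx2 level of all 6. In the double knockout, Ttr had 9, 5 and 4 reads. The part of choroid plexus cells in the Otx2 levels was not tested.

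Of 14 meningeal genes, 12 were tested, none rose and 1 fell, with a median log2 fold change of -0.18. The one that fell was Cxcl12, a chemokine gene, from 15.9 ± 2.21 to 10.9 ± 0.531 CPM (SD, n = 3; adjusted p 0.0413 in edgeR). That call held without wild-type replicate 3 and ended without each of the other libraries, with total count scaling and with the Y-linked covariate (edgeR adjusted p 0.0568 to 0.155). The summed level of the list was 56.2 to 73.7 CPM in the wild type and 54.0 to 56.1 CPM in the double knockout. The part of meningeal cells in the Zic levels was not tested. None of the 18 cortical hem and roof plate genes was called among 13 tested, and their sums overlapped, at 149.9 to 167 and 143 to 159 CPM.

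Of 9 Cajal-Retzius markers, all tested, 2 rose and none fell, with a median log2 fold change of 0.26. These were Lhx1 and Ebf3, a transcription factor gene, at 21.6 ± 1.98 and 42.5 ± 11.8 CPM (SD, n = 3; adjusted p 0.0318 in edgeR). Gm45278 overlaps Ebf3 on the opposite strand. The summed level of this list was 419.9, 404 and 459.5 CPM in the wild-type libraries and 494.5, 565 and 344 CPM in the double knockout libraries. Wild-type replicate 3 was the highest wild-type library and double knockout replicate 3 the lowest of all 6, the order seen for Zic2. The part of such cells in the Zic pattern was not tested. Both calls were lost in the fits without wild-type replicate 1 or 2 or double knockout replicate 1 or 2 (edgeR adjusted p 0.0582 to 0.133), and that of Ebf3 also without wild-type replicate 3 (0.0792), with the replicate block (0.0553), with limma-voom (0.0581) and with the Y-linked covariate (0.0603).

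Of 22 diencephalon and midbrain genes, 18 were tested, 3 rose and 1 fell, where 1.34% of all tested genes were called in each direction. Their median log2 fold change was 0.52. Pax7, a dorsal midbrain factor, rose from 0.167 ± 0.0782 to 9.80 ± 1.61 CPM (SD, n = 3). Lhx1, also counted among the Cajal-Retzius markers, rose as given above. Irx2, with a mean below 1 CPM in both groups and named after its values were seen, rose from 0.149 ± 0.0332 to 0.885 ± 0.275 CPM (SD, n = 3). In the wild-type libraries Pax7 had 13, 5 and 13 reads and Irx2 had 8, 8 and 12. Pax7 and Irx2 thus passed the filter on low counts through the double knockout libraries, where they were high. The count of genes that rose includes them and is a description. Foxp2, a forkhead factor, fell (log2 fold change -0.25; edgeR adjusted p 0.0408). That call ended in each of the 6 fits without 1 library, with total count scaling, with limma-voom and with the Y-linked covariate (adjusted p 0.0546 to 0.153). Of 12 pallial genes, all tested, none rose and 1 fell, the neuronal factor Neurod2, with a log2 fold change of -0.53. Their summed level was 1110 to 1144 CPM in the wild type and 904.6 to 939 CPM in the double knockout. The part of pallial cells in the Otx2 and Zic1 levels was not tested.

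**Figure D5:**
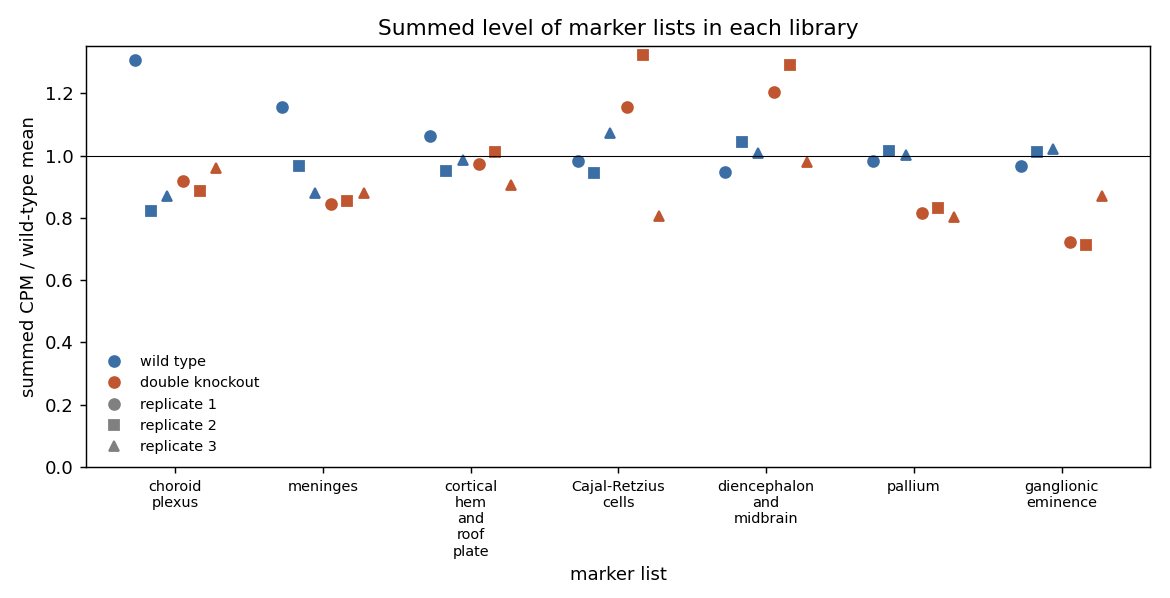
Summed CPM of marker lists in each library divided by the wild-type mean, with wild type in blue, double knockout in orange and 1 marker shape per replicate number. Wild-type replicate 1 is highest for choroid plexus and meninges, double knockout replicate 3 is lowest for Cajal-Retzius cells, and pallium and ganglionic eminence sums are lower in every double knockout library. The largest single parts of the choroid plexus, cortical hem and Cajal-Retzius sums are Igfbp2, Wnt7b and Reln.

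Of the 14 ganglionic eminence markers, all tested, 4 rose and 7 fell, where 1.34% of all tested genes were called in each direction. The genes that rose were Gsx1, Gsx2, Isl1 and Nkx2-1, transcription factors of ventral progenitors and early neurons, with log2 fold changes of 2.95, 0.64, 0.62 and 0.59. The call of Gsx2 ended without wild-type replicate 1 or 2 and with the Y-linked covariate (edgeR adjusted p 0.0685 to 0.0969). That of Nkx2-1 ended with this covariate and without any 1 of the wild-type libraries or double knockout replicate 1 (edgeR adjusted p 0.064 to 0.147). Gsx1 was at 5.14 ± 0.325 and 39.6 ± 7.38 CPM (SD, n = 3). Those with the largest decreases on this list were Sp8, Ebf1, Gad1 and Gad2, with log2 fold changes of -1.72, -1.55, -1.47 and -1.38. Gad1, which makes the transmitter GABA, was at 120 ± 5.01 and 43.1 ± 2.39 CPM (SD, n = 3).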

How the data were processed

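Total RNA of E13.5 ganglionic eminences was measured in 3 wild-type and 3 double knockout libraries. The authors deposited whole-number read counts per gene, made with featureCounts on build GRCm39 per the submitters' processing notes. The aligner, annotation release and strand setting are not given in the sources used here. Groups and replicate numbers came from sample titles, and all deposited columns were used. The table had 1492 genes without a symbol.

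Genes were filtered with filterByExpr (minimum count 10, minimum total 15), leaving 23628, scaled by TMM and tested with edgeR 4.0.16 in R 4.3.3 (quasi-likelihood test, prior count 0.125, Benjamini-Hochberg adjustment over all tested genes, calls at an adjusted p under 0.05). SE is the log2 fold change over the square root of F. Log2 CPM used a pseudocount of 0.5 CPM, except in the plot of levels relative to the wild-type mean, and ratios a pseudocount of 0.5 reads. Floors of 3 reads equal 0.0428 to 0.053 CPM per library and cover counting error only. Scripts were tested on simulated data. Alternatives were DESeq2 size factors, total counts, DESeq2 1.42.0, limma-voom (limma 3.58.1), other filters, a replicate block, a Y-linked covariate and leaving out each library. Exon lengths and overlaps came from GENCODE M21 (GRCm38), not the authors' build, so coordinates are given only for RefSeq promoters.

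The members and the 10 gene lists were chosen with earlier results of these data known. Named genes were the members, Dlx1 and Dlx2, genes overlapping members, up to 4 called genes per list and direction whose mean reached 1 CPM, and the 3 genes most like each called member. Named after their values were seen were Ttr, Folr1, Kcne2, Igfbp2, Wnt7b, Reln, Crx, Dmbx1, Irx2, 2610035F20Rik and Gm29478. The same holds for Cnpy1, Gm47472, Pcdha8, Fgf17, Wnt2b, Wnt5a, Lef1 and Lhx9. Some genes are not reported here and were left out of the members and lists.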

Additional observations from a re-analysis of the deposited data

How the results depend on the processing

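Otx2 stayed called under all 14 alternatives. Zic1 stayed called under 9 of the 14, and in 2 of the 6 fits without 1 library. It was not called with the Y-linked covariate (log2 fold change 0.83), and without 1 library its log2 fold change ranged from 0.63 to 0.96. Zic4 became called under 2 of the 14, without a filter on low counts (1.28) and without wild-type replicate 3 (1.79). Without 1 library it ranged from 1.04 to 1.79. Otx1, Zic2 and Zic5 were called under none of the 14, and no member or ratio changed sign. DESeq2 called 1168 genes and the Y-linked covariate 359, against 634, and the fits without 1 library called 309 to 749, with 309, 325 and 403 without wild-type replicates 1, 2 and 3 and 380 and 402 without double knockout replicates 1 and 2. Of the genes in the lists 20 were called, 31 with DESeq2, 13 with the Y-linked covariate and 12 to 25 without 1 library, with 12 without wild-type replicate 1 and 13 each without wild-type replicate 2 and double knockout replicates 1 and 2. The cause was not tested. The labels do not say that same-numbered libraries came from littermates of each other, so the numbers were not treated as pairs in the main fit. As a check, same-numbered libraries had correlations of -0.125, -0.0173 and 0.0502 in their deviations from group means. With the replicate block, log2 fold changes were 1.47 for Otx2, 0.77 for Zic1, 1.37 for Zic4, 0.30 for Otx1 and Zic2, and 0.63 for Zic5, with no changed call among the members and that of Ebf3 lost (0.94, adjusted p 0.0553), 690 genes called in all and 21 in the lists. Ratios in the block were unchanged at 1.17, -0.59, -0.30 and 0.48. Among list counts and list genes, 292 values under an alternative kept their side of the threshold or stayed within 1.5 times the main count, 44 lost a call and 42 counts moved by over 1.5 times. The spread between 3 libraries a group limits Zic2 and Zic5 more than depth, as each had 579 or more reads in every library.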

Other observations

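Some genes outside the families had, like Zic2 and Zic5, their lowest double knockout level in replicate 3. The share of all tested genes with this order was not counted. Other list genes went the other way. Wnt5a was at 11.9, 11.7 and 12.5 CPM in double knockout replicates 1 to 3, and Lef1 at 14.1, 14.5 and 15.1 CPM. All genes named in this paragraph outside the families were picked after their values were seen. Fgf17, a growth factor gene of the rostral midline, was at 0.546, 0.233 and 2.85 CPM in wild-type replicates 1 to 3 and at 1.65, 2.20 and 0.317 CPM in double knockout replicates 1 to 3. Wnt2b, a gene of the cortical hem, was at 1.365, 1.74 and 2.68 CPM in the wild type and 2.33, 2.498 and 1.845 CPM in the double knockout. Neither was called in edgeR (adjusted p 0.962 and 0.835). Lhx9, a LIM homeodomain factor of the diencephalon, was at 58.7 and 62.1 CPM in double knockout replicates 1 and 2 but at 31.8 CPM in replicate 3, below all 3 wild-type libraries at 32.2 to 40.3 CPM.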
